A study of Mus musculus with 38 samples.

Results

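The S100 genes outside the myeloid pair S100a8 and S100a9 were examined in mouse embryos with a hypomorphic Dnmt3b, the de novo DNA methyltransferase whose human counterpart is mutated in ICF syndrome. They were taken as every probe whose platform symbol, current or older, is S100a1, S100a3, S100a4, S100a5, S100a6, S100a10, S100a11, S100a13, S100a16 or S100b. This gave 10 genes, measured by 11 probes, of 18300 genes named on the array. S100a4 had 2 probes and each other gene had 1. All 418 of their spot values were measured, so no member was lost to a filter. The set was chosen by its own log2 ratios in thymus and fibroblasts, S100a4 leading it, so those ratios are described here and carry no test. No threshold set its limits.

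Thymus came from 5 embryos at 18.5 days post coitum (dpc) and was read on 18 arrays, and fibroblasts (MEF) came from 5 embryos at 12.5 dpc and were read on 20 arrays. The thymus labels give the genotype m3/m24, except on 3 arrays that give the embryo number alone. For fibroblasts the labels carry just an embryo number, and it is the series design that calls them hypomorphic. Each array set amplified RNA of 1 hypomorphic embryo against pooled wild-type RNA of that tissue, which the design describes as 5 samples, with the dyes exchanged between arrays. All embryos, wild-type ones included, were hybrids of 129SvJae and C57BL/6 mice. The pool is 1 control sample, so the spread among wild-type embryos is not seen, and nothing is stated about how long the fibroblasts were cultured. The tissues are mixtures of cells, so fewer cells of a type and less RNA per cell cannot be told apart.

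S100 proteins are small EF-hand proteins found in vertebrates, most of which bind calcium, change shape and then grip a partner protein. They act inside cells on the cytoskeleton, membranes and annexins, and several are also secreted. Most of their genes lie side by side in the epidermal differentiation complex, and each is switched on in its own set of tissues. S100a4, also called Fsp1 or metastasin, binds non-muscle myosin heavy chain and is known from fibroblasts, leukocytes and invasive tumour cells. In mouse the 13 S100a genes examined here lie on chromosome 3. Their RefSeq order is S100a1, S100a13, S100a14, S100a16, S100a3, S100a4, S100a5, S100a6, S100a7a, S100a8, S100a9, S100a11 and S100a10, while S100b lies on chromosome 10.

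Dnmt3b places methyl groups on CpG dinucleotides, so the CpGs around the transcription start were counted in the RefSeq promoter windows (GRCm38.p6), each holding 250 bases before and 50 after a start. The windows held 9 of the 10 members, S100a10 being the exception, in 13 promoters. The windows below belong to the members with a thymus mean under -0.2, S100a4, S100a6, S100a11 and S100a13, and to S100a5, the neighbour of S100a4 that lay above the pool there. Each is written 5′ to 3′ with every CpG in capitals.
S100a4, chr3:90603520-90603819, plus strand: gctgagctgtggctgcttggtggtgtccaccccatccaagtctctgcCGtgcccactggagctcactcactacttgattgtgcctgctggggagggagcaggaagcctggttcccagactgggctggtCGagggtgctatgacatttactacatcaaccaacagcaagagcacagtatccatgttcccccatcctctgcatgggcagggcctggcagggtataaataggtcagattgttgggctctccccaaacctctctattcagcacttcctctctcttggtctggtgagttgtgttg
S100a6, chr3:90612644-90612943, plus strand: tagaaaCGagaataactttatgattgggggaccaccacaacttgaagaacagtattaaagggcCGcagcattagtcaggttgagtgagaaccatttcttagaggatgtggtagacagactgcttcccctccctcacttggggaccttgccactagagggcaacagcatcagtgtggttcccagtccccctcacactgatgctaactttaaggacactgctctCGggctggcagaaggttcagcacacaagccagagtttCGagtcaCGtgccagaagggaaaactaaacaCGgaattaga
S100a11, chr3:93520246-93520545, plus strand: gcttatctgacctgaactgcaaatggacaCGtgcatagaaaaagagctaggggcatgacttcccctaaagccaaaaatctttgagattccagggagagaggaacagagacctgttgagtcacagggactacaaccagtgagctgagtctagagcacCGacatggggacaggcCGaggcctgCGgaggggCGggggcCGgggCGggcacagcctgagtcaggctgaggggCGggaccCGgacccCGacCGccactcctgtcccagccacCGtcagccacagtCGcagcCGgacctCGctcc
S100a13, chr3:90514185-90514484, plus strand: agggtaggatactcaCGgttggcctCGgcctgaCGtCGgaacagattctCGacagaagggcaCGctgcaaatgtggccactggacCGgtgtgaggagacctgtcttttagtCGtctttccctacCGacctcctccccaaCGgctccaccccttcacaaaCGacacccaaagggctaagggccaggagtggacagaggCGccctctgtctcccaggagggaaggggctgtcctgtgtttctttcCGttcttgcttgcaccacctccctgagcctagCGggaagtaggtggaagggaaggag
S100a5, chr3:90608272-90608571, plus strand: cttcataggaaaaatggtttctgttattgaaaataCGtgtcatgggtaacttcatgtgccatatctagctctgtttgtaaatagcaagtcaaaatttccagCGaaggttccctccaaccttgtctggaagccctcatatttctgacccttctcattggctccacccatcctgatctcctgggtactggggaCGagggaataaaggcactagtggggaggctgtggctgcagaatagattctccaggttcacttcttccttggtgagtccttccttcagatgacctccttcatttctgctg

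These windows differed widely in CpG content. The S100a4 window held 2 CpGs, an observed over expected ratio of 0.0871, and 14.1% of 32841 promoters of the same length held fewer. The S100a6 window held 6, close to the median of 7 over all promoters. The S100a11 and S100a13 windows were richer, with 15 and 14 CpGs, and 65.4% and 63.7% of promoters held fewer. S100a5 and S100b held 3 each. The S100a3 windows held 0 to 5 and the S100a16 windows 2 and 4. S100a1 held 11, and its window shares 204 bases with that of S100a13, the gene on the opposite strand. Of the motifs searched on both strands, TATAAA occurred in the S100a4 window and in 1 of 4 S100a3 windows (13.6% of all promoters hold it). GGGCGG, which itself holds a CpG, occurred 3 times in the S100a11 window and once each in a S100a3 and a S100a16 window (35.7% of promoters hold it). TGANTCA occurred 2 times in the S100a11 window and once in the same S100a16 window (7.81% of promoters). A match describes the letters and is not a bound site, and no methylation was measured here.

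Values are log2 ratios, likely of hypomorph over pool, after each array was centred on its median, and the value of an embryo gives equal weight to both dye orientations. The direction is not stated by the submitters. Slc25a31, the germ cell ADP/ATP carrier that DNA methylation silences in somatic cells, lay above 0 on all 9 thymus arrays with the hypomorph in Cy5 and on all 9 with it in Cy3. Eif2s3y, a Y-linked gene, reached -3.97 and no higher than 0.77 in thymus. Dye effects were large: over all features the median absolute dye effect (0.5 times the difference between orientations) was 0.143 in thymus, against a median absolute embryo mean of 0.0481. In fibroblasts, 3 arrays were doubted, arrays 2 and 4 of embryo 1 and array 4 of embryo 4. After removal of the dye profile, their mean correlation across features with the other arrays of their embryo was negative (-0.02, -0.18 and -0.12). Array 4 of embryo 2 was as low as array 2 of embryo 1 (-0.02) and was kept, so this measure alone does not set the 3 apart. On array 4 of embryo 4 Eif2s3y was at 3.16 and Slc25a31 at -1.68, opposite in sign to Slc25a31 on all 19 other fibroblast arrays. Fibroblast means are given with all arrays and, where named, without these 3. In the whole table, the thymus test passed 5 of 21949 features, of which 4 lay above the pool (0.0182%) and 1 below it (0.00456%), and the fibroblast test passed 1 of 22025, below the pool (limma, Benjamini-Hochberg adjusted p under 0.05). The thymus count was 0 without embryo 1, 3 or 5 and 1 without embryo 2. The fibroblast count was 38 without embryo 4, 83 without array 4 of embryo 4 and 0 without any other embryo.

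In thymus the S100 genes lay mostly below the pool. By the mean over embryos and probes S100a4 was the lowest of the 10 members. The annexin partners S100a10 and S100a11 followed, and then S100a13, S100a6 and S100a3. Of the 10 members, 9 had a mean below 0, against 45.1% of all features, and 5 (S100a4, S100a6, S100a10, S100a11 and S100b) lay below the pool in all 5 embryos, against 4.86%. No member lay above it in all 5 (3.53% of features did), and 5 had a mean at or below -0.2 (3.69%): S100a4, S100a6, S100a10, S100a11 and S100a13. The median of the member means was -0.20, against 0.01 over all features. No member passed the limma test, whose share over all features was 0.0228%, and 7 members had an unadjusted p under 0.05, all lower (4.8% of features were lower by that rule, 2.69% higher and 7.49% either way). These ratios chose the set, so nothing is read from the counts.

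S100a4 was at -0.40, -0.37, -0.29, -0.62 and -0.55 in thymus embryos 1 to 5, all below the pool. Its mean was -0.45 ± 0.14 (SD, n = 5), or 1.36-fold lower, and 0.51% of features lay lower still. In fibroblasts it was at -0.32, -0.62, -0.53, 0.02 and -0.69, so that 4 embryos lay below the pool and embryo 4 lay on it. The fibroblast mean was -0.43 ± 0.29 (SD, n = 5), and -0.41 without the 3 doubted arrays. With both probes averaged and all embryos kept, S100a4 had the lowest mean of the 10 members in both tissues. The order turned in fibroblasts without embryo 5, where S100a5 was at -0.42 and S100a4 at -0.36. It also turned with probe 2 alone (-0.088 in thymus, -0.31 in fibroblasts) and in thymus within each dye orientation. With the hypomorph in Cy5 only, S100b was at -0.89 and S100a4 at -0.78. With it in Cy3 only, S100a11 was the lowest at -0.47 and S100a4 was at -0.11.

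**Figure D1:**
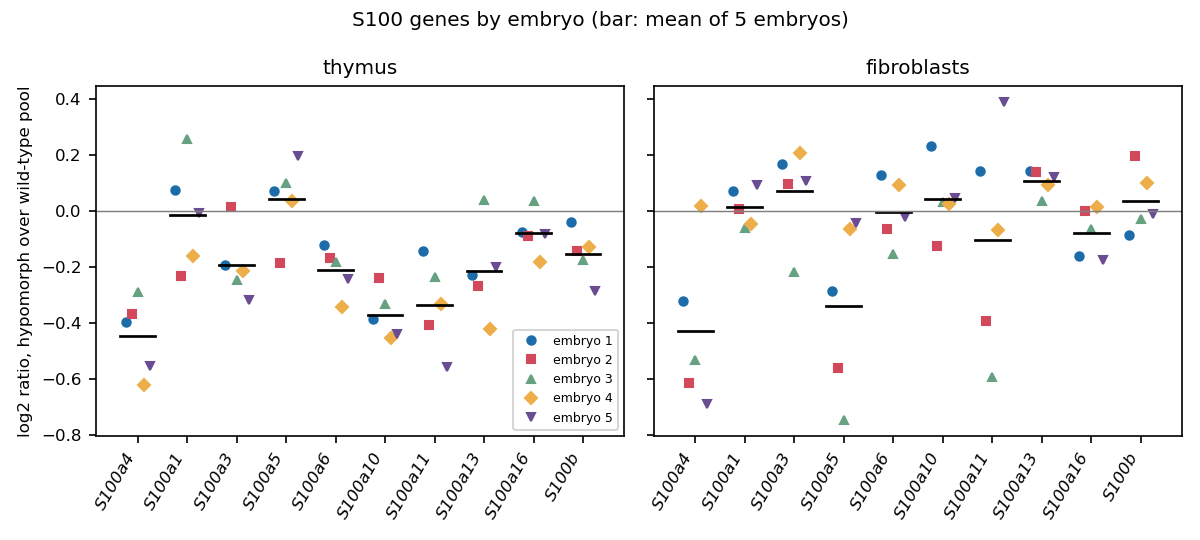
The y axis is the log2 ratio of hypomorph over wild-type pool, with 1 point for each of 5 embryos and a bar at their mean, for the 10 S100 genes in thymus (left) and fibroblasts (right). In thymus S100a4, S100a6, S100a10, S100a11 and S100b have all points below 0. In fibroblasts S100a5 has all 5 below 0, S100a4 has 4 of 5 below 0 and S100a13 has all 5 above.

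The 2 S100a4 probes gave different values in thymus. Probe 1 (platform ID 25.20.8) was at -0.84, -0.71, -0.63, -0.81 and -1.03 in embryos 1 to 5 and below 0 on 18 of 18 arrays. Its mean was -0.81 ± 0.15 (SD, n = 5), which is 1.75-fold lower, and it was alike in both orientations, at -0.85 with the hypomorph in Cy5 and -0.76 with it in Cy3. Probe 2 (44.21.8) was at 0.05, -0.03, 0.05, -0.43 and -0.08, on both sides of the pool. Its mean was -0.09 ± 0.20 (SD, n = 5). It lay below 0 on all 9 arrays with the hypomorph in Cy5 (-1.46 to -0.20) and above 0 on all 9 with it in Cy3 (0.13 to 1.20). The S100a4 mean in thymus is therefore the average of a probe that kept its sign across the dyes and a probe that turned with them. The sequences of the probes were not used here, and which probe follows S100a4 RNA was not tested.

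In fibroblasts both S100a4 probes lay below the pool on average. Probe 1 was at -0.56, -0.67, -0.42, 0.00 and -1.11 in embryos 1 to 5, with a mean of -0.55 ± 0.40 (SD, n = 5) and 17 of 20 arrays below 0. Probe 2 was at -0.09, -0.57, -0.64, 0.04 and -0.27, with a mean of -0.31 ± 0.29 (SD, n = 5) and 14 of 20 arrays below 0. Embryo 4 was the 1 embryo at the pool for both probes: its 4 arrays ran from -0.12 to 0.10 for probe 1 and from -0.123 to 0.155 for probe 2. Over all features that embryo was the nearest to the pool, with a median absolute log2 ratio of 0.0618, against 0.0943 to 0.12 in the other 4. The 0.0618 includes its doubted array 4, on which Slc25a31 had the opposite sign, and was not computed without that array. By array, probe 2 ran with the probe of the adjacent gene S100a5 (Pearson r = 0.78 over 20 fibroblast arrays, 0.68 over the 10 with the hypomorph in Cy5 and 0.89 over the 10 with it in Cy3). For probe 1 and S100a5 the r was -0.01 over the 20, 0.34 with the hypomorph in Cy5 and -0.20 with it in Cy3. Between the 2 S100a4 probes the r was 0.24 over the 20, 0.66 in Cy5 and 0.15 in Cy3, and -0.07 over the 18 thymus arrays. In thymus the r between probe 2 and S100a5 was 0.71 over 18 arrays, but 0.04 and -0.31 within the Cy5 and Cy3 orientations of 9 arrays each. Arrays of 1 embryo share their RNA and every array shares the pool, so these values are descriptions.

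**Figure D2:**
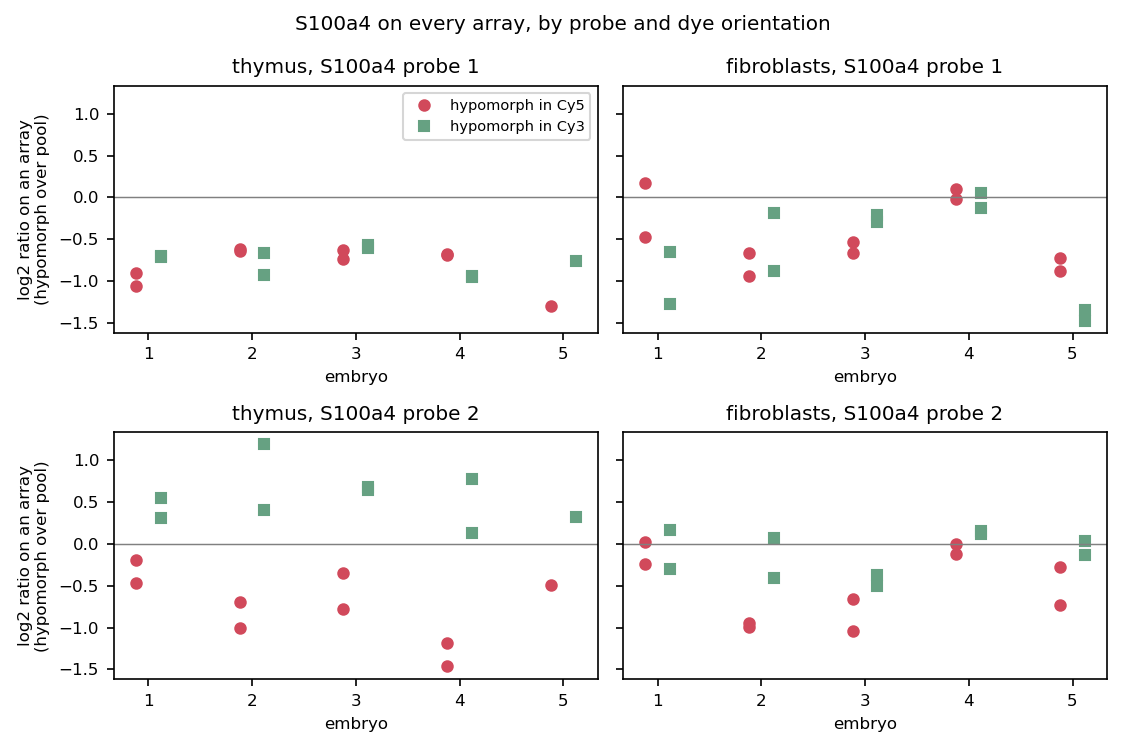
Each point is 1 array, with the log2 ratio of hypomorph over pool on the y axis and the embryo on the x axis, circles for arrays with the hypomorph in Cy5 and squares for Cy3, with probe 1 in the upper row and probe 2 in the lower row. In thymus (left) probe 1 is below 0 on all 18 arrays while probe 2 splits by dye, and in fibroblasts (right) embryo 4 stays near 0 for both probes.

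S100a10, or p11, is the calcium-independent partner of annexin A2 that carries membrane proteins to the cell surface. In thymus it was at -0.38, -0.24, -0.33, -0.46 and -0.44 in embryos 1 to 5 and below 0 on all 18 arrays. Its mean was -0.37 ± 0.09 (SD, n = 5), or 1.29-fold lower, and both orientations lay below the pool (-0.50 with the hypomorph in Cy5 and -0.24 with it in Cy3). In fibroblasts it stayed at the pool, at 0.23, -0.12, 0.03, 0.02 and 0.05, with a mean of 0.04 ± 0.13 (SD, n = 5). The difference between tissues was not tested, since both contrasts chose the set.

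S100a11, a partner of annexin A1 in membrane repair and keratinocyte growth control, was at -0.14, -0.41, -0.24, -0.33 and -0.56 in thymus embryos 1 to 5. Its mean there was -0.34 ± 0.16 (SD, n = 5), with 16 of 18 arrays below 0 and both orientations below the pool (-0.20 in Cy5 and -0.47 in Cy3). In fibroblasts the embryos ran apart, at 0.14, -0.39, -0.59, -0.07 and 0.39, which gave a mean of -0.10 ± 0.40 (SD, n = 5). S100a11 had the widest spread among fibroblast embryos of the 10 members. S100a10 and S100a11 are the last S100a genes in the chromosomal order and lie apart from the main block.

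S100a6, calcyclin, binds the ubiquitin ligase adaptor Cacybp and annexins and is abundant in fibroblasts and epithelia. It was at -0.12, -0.17, -0.18, -0.35 and -0.24 in thymus (mean -0.21 ± 0.09, SD, n = 5). All 5 embryos lay below the pool, but the orientations differed: -0.45 with the hypomorph in Cy5 and 0.03 with it in Cy3. In fibroblasts its mean was 0.00 ± 0.12 (SD, n = 5), with embryos from -0.15 to 0.13. S100a13, which helps export fibroblast growth factor 1 from cells, was at -0.23, -0.27, 0.04, -0.42 and -0.20 in thymus. Its thymus mean was -0.22 ± 0.17 (SD, n = 5), with 16 of 18 arrays below 0 and like values in both orientations (-0.24 and -0.19). In fibroblasts S100a13 was at 0.14, 0.14, 0.04, 0.09 and 0.12, above the pool in all 5 embryos (7.8% of features were). Its fibroblast mean of 0.11 ± 0.04 (SD, n = 5) came mostly from the arrays with the hypomorph in Cy5 (0.20, against 0.02 in Cy3). Without the 3 doubted arrays it was 0.15.

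S100a1, which tunes calcium handling in heart and skeletal muscle, has a promoter window that overlaps that of S100a13. The thymus means of S100a1 and S100a13 differed (-0.01 and -0.22), but both genes were highest there in embryo 3 (0.26 and 0.04). In fibroblasts both were lowest in embryo 3 (-0.06 and 0.04). This was not particular to the pair. S100a4 and S100a16 were also highest in embryo 3 in thymus, and S100a3, S100a5, S100a6 and S100a11 were also lowest in embryo 3 in fibroblasts. The S100a1 value in thymus embryo 3 included 1 array at 1.17, while its other arrays ran from -0.31 to 0.26. Over thymus embryos S100a1 ran from -0.23 to 0.26 with a mean of -0.01 ± 0.20. In fibroblasts S100a1 ran from -0.06 to 0.09 with a mean of 0.01 ± 0.07 (SD, n = 5 each). Its ratio followed the dye in both tissues, at 0.34 with the hypomorph in Cy5 and -0.37 with it in Cy3 in thymus, and at 0.31 and -0.28 in fibroblasts. S100a16, a widely expressed member, lay close to the pool at -0.08 ± 0.08 in thymus and -0.08 ± 0.09 in fibroblasts (SD, n = 5 each), with embryos on both sides in each tissue.

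S100a3, a zinc-binding member of the hair cuticle, lies just before S100a4. It was at -0.19, 0.01, -0.25, -0.22 and -0.32 in thymus (mean -0.19 ± 0.12, SD, n = 5), where both orientations averaged -0.19. In fibroblasts it was at 0.17, 0.10, -0.22, 0.21 and 0.11 (mean 0.07 ± 0.17, SD, n = 5), with embryo 3 alone below the pool. S100a5, known from olfactory neurons, follows S100a4 and showed another picture. In fibroblasts it was at -0.29, -0.56, -0.75, -0.06 and -0.04, all below the pool (9.01% of features were), with a mean of -0.34 ± 0.31 (SD, n = 5). Embryos 4 and 5 lay near 0, whereas S100a4 had its lowest fibroblast value in embryo 5. In thymus S100a5 averaged 0.04 ± 0.14 (SD, n = 5), and its arrays split by dye, at -0.25 in Cy5 and 0.34 in Cy3.

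S100b, the glial and Schwann cell member that is also made by adipocytes and chondrocytes, lay below the pool in all 5 thymus embryos, from -0.28 to -0.04, with a mean of -0.15 ± 0.09 (SD, n = 5). That small mean was what remained of the largest dye split among the 11 probes, at -0.89 with the hypomorph in Cy5 and 0.58 with it in Cy3. In fibroblasts S100b averaged 0.04 ± 0.11 (SD, n = 5), again with opposite orientations (-0.35 and 0.42). Probes whose orientations had the same sign in thymus were S100a4 probe 1, S100a3, S100a10, S100a11 and S100a13, all below the pool.

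**Figure D3:**
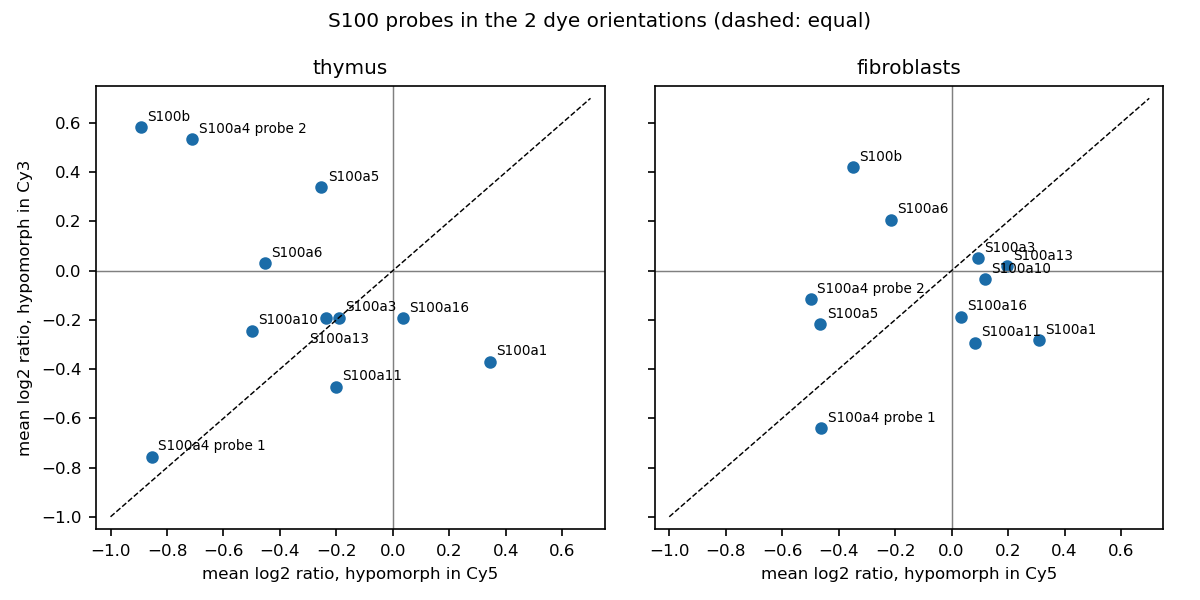
Each point is 1 of the 11 S100 probes, with its mean log2 ratio over embryos on arrays with the hypomorph in Cy5 on the x axis and in Cy3 on the y axis, for thymus (left) and fibroblasts (right). S100a4 probe 1 lies near the dashed line of equal values, at -0.85 and -0.76 in thymus, while S100b and S100a4 probe 2 lie in the upper left quadrant there.

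In fibroblasts the members as a whole had no common direction. Of the 10, 5 had a mean below 0 (50.9% of features did), 1 lay below the pool in every embryo and 1 above it, and the median of the member means was 0.00. No member passed the limma test (0.00454% of features did), and 3 had an unadjusted p under 0.05 (16% of features), S100a4 and S100a5 below (7.82%) and S100a13 above the pool (8.22%). S100a4 and S100a5 were also the 2 members with a mean at or below -0.2 (6.43%). These ratios, too, chose the set. Without the 3 doubted arrays the means of S100a5, S100a10 and S100a11 were -0.34, 0.09 and -0.08, and that of S100a3 was 0.06.

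The 5 other S100 genes on the array also had thymus means below 0 (45.1% of features did). Those of S100a8 (-0.46 ± 0.38) and S100a9 (-0.61 ± 0.62) were lower than that of S100a4 (-0.45 ± 0.14; SD, n = 5 each). The myeloid pair S100a8 and S100a9 form calprotectin, which neutrophils and monocytes carry. S100a8 was at -0.06, -0.63, -0.06, -0.84 and -0.72 in thymus and S100a9 at 0.03, -0.69, 0.02, -1.08 and -1.32, so that embryos 1 and 3 lay at the pool and embryos 2, 4 and 5 far below it. In fibroblasts the pair lay near 0, at -0.04 ± 0.07 and 0.02 ± 0.08 (SD, n = 5 each). S100a14, an epithelial member, averaged -0.10 ± 0.15 in thymus and -0.10 ± 0.07 in fibroblasts, and S100a7a, a skin member, -0.02 ± 0.17 and 0.04 ± 0.10 (SD, n = 5 each). S100g, the intestinal calcium carrier calbindin D9k, averaged -0.26 ± 0.21 in thymus and -0.02 ± 0.38 in fibroblasts (SD, n = 5 each), and all its thymus embryos lay below the pool.

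**Figure D4:**
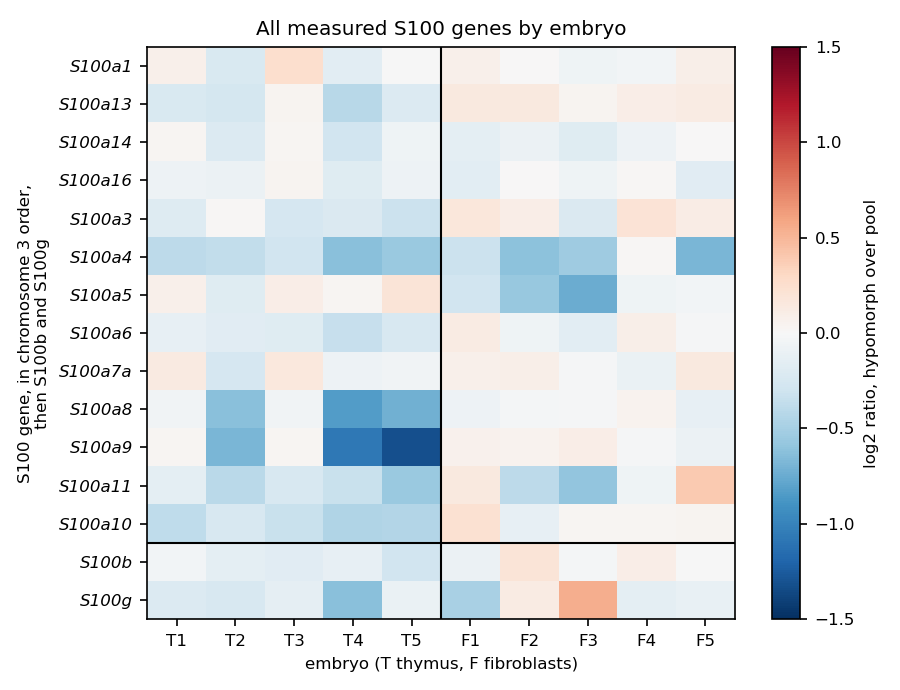
Rows are the measured S100 genes in their order on chromosome 3, then S100b and S100g, columns are thymus (T1 to T5) and fibroblast (F1 to F5) embryos, and colour is the log2 ratio of hypomorph over pool (blue below 0, red above). S100a4, S100a11 and S100a10 are blue in all thymus columns, whereas S100a8 and S100a9 are deep blue in T2, T4 and T5 and near white in T1 and T3.

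The chromosome around the block did not share a common shift. No gene that is not an S100 gene was measured inside it, and of the 10 nearest measured genes on each side, 7 of 20 lay below the pool in thymus (median 0.01) and 9 of 20 in fibroblasts (median 0.00). None passed. The largest means in thymus were those of Sprr2b, a cornified envelope gene (-0.86 ± 0.46), the zinc transporter Slc39a1 (-0.34 ± 0.20) and the natriuretic peptide receptor Npr1 (0.17 ± 0.40; SD, n = 5 each). Slc39a1 was at 0.56 ± 0.65 in fibroblasts (SD, n = 5). Of 21 measured genes of the epidermal differentiation complex, which include Sprr2b and other genes just named as neighbours, 9 lay below the pool in thymus (median 0.02) and 12 in fibroblasts (median -0.02), and none passed.

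Known partners of S100 proteins had no common direction in thymus. Of 15 measured partners 7 lay below the pool (median 0.01) and none passed. Myh9, the non-muscle myosin heavy chain bound by S100a4, was at -0.20 ± 0.11, the exocytosis sensor Syt1 at -0.18 ± 0.22 and Ager, the receptor RAGE for secreted S100 proteins, at -0.16 ± 0.22 (SD, n = 5 each). In fibroblasts 10 of 16 lay below the pool (median -0.04) and none passed. Anxa2, the annexin bound by S100a10, was at -0.41, -0.34, -0.77, 0.04 and -0.55 there (mean -0.41 ± 0.30, SD, n = 5). Embryo 4, its doubted array 4 included, was alone at the pool, as for S100a4. Tlr4, the endotoxin receptor that calprotectin can engage, was at -0.30 ± 0.18 and Cacybp at 0.29 ± 0.30 (SD, n = 5 each). S100a10 itself averaged 0.04 in fibroblasts, while Anxa2 averaged -0.02 ± 0.31 in thymus (SD, n = 5), where S100a10 was low.

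Other EF-hand proteins gave 11 of 19 below the pool in thymus (median -0.01) and 12 of 19 in fibroblasts (median -0.05), and none passed. In thymus the largest means were those of Rcn3, an endoplasmic reticulum calcium binder (-0.26 ± 0.20), the calcineurin-like protein Chp1 (0.24 ± 0.23) and the integrin-binding Cib1 (-0.23 ± 0.17; SD, n = 5 each). In fibroblasts they were those of Ppp3r1, the calcineurin regulatory subunit (-1.37 ± 0.73), Chp1 (-0.85 ± 0.34) and calumenin, Calu (-0.64 ± 0.27; SD, n = 5 each). With its doubted array 4 included, fibroblast embryo 4 was again the nearest to the pool for Ppp3r1, Chp1 and Calu, at -0.08, -0.34 and -0.18.

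The genes whose 10 embryo values came nearest to those of S100a4 were found by the root mean square difference over both tissues, among 18157 genes. They were Cystm1 (0.205), Dynlrb1 (0.223), Ociad2 (0.226), Cgref1 (0.231) and Gfap (0.233), in log2 units. Their thymus means ran from -0.34 for Gfap, the astrocyte filament gene, to -0.20 for Cystm1, and their fibroblast means from -0.60 for Gfap to -0.32 for Ociad2. Of the other members S100a6 was the nearest at 0.375, with 257 genes nearer to S100a4 than it was. The likeness is a description of these 10 values.

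Markers of the cell types known to express S100 genes were read on the same arrays. Of the mesenchyme genes, the cells S100a4 is named for, those in thymus lay below the pool in 10 of 12 cases (median -0.08), with list medians of -0.02, -0.01, -0.29, -0.05 and -0.29 in embryos 1 to 5. Postn, a matrix protein of mesenchyme (-0.42 ± 0.25), the collagen gene Col1a2 (-0.37 ± 0.29) and the proteoglycan gene Dcn (-0.30 ± 0.24) were its lowest (SD, n = 5 each). The lowest mesenchyme medians were those of embryos 3 and 5 (-0.29 each). S100a4 probe 1 was lowest in embryo 5 (-1.03) and highest in embryo 3 (-0.63). Whether S100a4 follows the mesenchyme genes over the 5 embryos was not tested. The average of both S100a4 probes was lowest in embryo 4 (-0.62) and highest in embryo 3 (-0.29). In embryo 4 the mesenchyme genes ran from -0.31 for Postn to 0.34 for Vim, the mesenchymal filament gene. Vim and Thy1 (0.27 in embryo 4) were the list members with means above the pool, at 0.07 each. Over embryos 1 to 5 Vim was at -0.02, 0.40, -0.21, 0.34 and -0.14, the same signs as the thymocyte list medians given below. Macrophage and granulocyte genes, which include S100a8 and S100a9, lay below the pool in 8 of 10 cases (median -0.04), with list medians of 0.02, -0.11, 0.01, -0.21 and -0.08 and, beside that pair, the granule protein Ltf at -0.23 ± 0.10 (SD, n = 5). Glial and Schwann genes gave 4 of 7 below (median -0.01), and the largest means were those of Mbp, myelin basic protein (-1.02 ± 0.65), Gfap (-0.34 ± 0.07) and the myelin gene Pmp22 (-0.22 ± 0.04; SD, n = 5 each), all below the pool in 5 of 5 embryos. The other 4 glial genes averaged -0.01 to 0.07, and S100b averaged -0.15. Adipocyte genes, from a cell type known to make S100b, gave 6 of 8 below (median -0.05). Among them the carbonic anhydrase Car3 (-0.76 ± 0.49), the hormone gene Adipoq (-0.74 ± 0.47) and the lipase Lpl (-0.31 ± 0.15) lay below the pool in 5 of 5 embryos (SD, n = 5 each). The rest of the adipocyte list averaged -0.07 (Fabp4) to 0.07 (Pparg). Of all features, 4.86% lay below the pool in all 5 thymus embryos. Thymocyte genes gave 8 of 11 below (median -0.10), with the largest means for Dntt, the terminal transferase (-0.80 ± 1.12), the T cell receptor subunit Cd3d (-0.21 ± 0.04) and the recombinase Rag1 (-0.13 ± 0.78; SD, n = 5 each). The thymocyte list had medians of -0.23, 0.18, -0.14, 0.08 and -0.22 in embryos 1 to 5, which differ in sign. The medians of the gene means of the dendritic, thymic epithelium, cartilage, striated muscle, keratinocyte, endothelium and erythroid lists ran from -0.10 to 0.06. Single embryos lay further out in 2 of these lists. In embryos 1 to 5 the striated muscle medians were -0.16, 0.30, -0.47, -0.17 and 0.73. The erythroid medians, over 4 measured genes, were 0.05, -0.465, 0.68, -0.64 and 0.36. No marker passed except Krt10, a keratin of the keratinocyte list, which fell (-0.49 ± 0.04, SD, n = 5; limma). The part of these cell types in the S100 values was not tested, and ratios carry no levels, so no marker can be called absent.

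In fibroblasts the mesenchyme markers lay mostly above the pool, with 3 of 12 below the pool (median 0.19), list medians of -0.01, 0.11, 0.53, 0.06 and -0.18 in embryos 1 to 5 and none passing. Dcn was at 1.40 ± 1.98, the related proteoglycan Lum at 0.82 ± 0.96 and Col1a1 at -0.56 ± 1.18 (SD, n = 5 each). Over the other marker lists the fibroblast medians ran from -0.09 for cartilage to 0.16 for adipocyte genes, and no marker passed.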

How the data were processed

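Amplified RNA of thymus or embryonic fibroblasts carried Cy3 or Cy5 and was read on 2-colour arrays with an Agilent G2565AA scanner, per the labels and the series design. The submitters left out 2 thymus arrays. The deposited table holds log2 ratios for 25344 spots on 38 arrays. How spots were extracted, corrected and normalized is unstated in the labels and the table. Array medians ran from -0.887 to 1.14, so the deposited log2 values had not been centred.

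Values at the bound of 16.61 were set missing, array medians were subtracted, and probes of a symbol were averaged. Symbols came from the platform annotation, updated through RefSeq (GRCm38.p6): of 21111 probes with a symbol 17069 were current, 3974 were updated and 68 kept, and 4233 had none. Bounded values were all positive (445) on the 19 Cy5 hypomorph arrays and all negative (423) on the 19 Cy3 ones. With the genes above 0 in both orientations, this is the basis for taking the ratio as hypomorph over pool. Arrays of 1 embryo are technical repeats: the embryo value is the mean of its 2 orientation means. Arrays of the same orientation correlated between 0.18 and 0.872, and thymus arrays of opposite orientation between -0.66 and -0.171 and fibroblast ones between -0.722 and 0.187, across features.

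Tests used R 4.3.3 and limma 3.58.1 on embryo values against 0, two-sided, over all features with a value in all 5 embryos. They were checked just on simulated shifts larger than any member mean, without shared dye or pool effects. They supply the share of features called and are not read as tests of the members, which, like the lists, were chosen with earlier results of these data known. The rule named all 10 members, the other S100 genes, at most 3 genes a list by absolute mean, and the 5 genes nearest S100a4. Anxa2 in thymus, the thymus values of Vim and Thy1, and the embryo values of Ppp3r1, Chp1 and Calu were added after their values were seen. So were the embryo medians of the striated muscle and erythroid lists in thymus. Alternatives covered centring, scaling, dye orientation, weighting, bounds, probes, array position, doubted arrays and each embryo left out. Signal over background is unknown, and the number of embryos limits the precision.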

Additional observations from a re-analysis of the deposited data

Results flagged for a closer look

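S100a3 in fibroblast embryo 3 lay apart from the other 4 embryos, at -0.219, against 0.10 to 0.21 in embryos 1, 2, 4 and 5. The gap to the nearest embryo was 0.738 of the whole range. It was 1 of 20 sets of 5 embryos examined in this way, and chance gives about 1 such value in 20.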

How the results depend on the processing

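S100a4 kept a mean below the pool under every alternative tried in both tissues. In thymus (-0.45) it was -0.78 with the hypomorph in Cy5 only, -0.11 with it in Cy3 only, -0.81 by probe 1 and -0.088 by probe 2, the single probes, print blocks and spot positions having been added after the data were seen. Leaving out an embryo gave -0.49 to -0.40 in thymus and -0.54 to -0.36 in fibroblasts. In thymus S100a6 turned to 0.029 and S100b to 0.58 in the Cy3 orientation, and S100a16 to 0.036 in the Cy5 orientation, where the dye effect stays in the ratio. S100a1 and S100a5, at -0.01 and 0.04 in the main setting, turned to 0.34 and -0.25 in the Cy5 orientation. S100a3, S100a11 and S100a13 stayed within 1 SD in thymus under all 15 alternatives each. The count of features passed in thymus (5) was 1 as deposited (higher), 13 with arrays scaled (9 higher, 4 lower), 8 with probe medians, 19 with complete features (11 higher, 8 lower), 10 with spot positions centred (7 higher, 3 lower), 9 without arrays lacking the genotype, 250 with embryo weights (85 higher, 165 lower), 409 over single arrays (136 higher, 273 lower), 4881 in Cy5 and 5244 in Cy3 only, and 0 to 4 with an embryo left out. In fibroblasts (1, lower) it was 8 as deposited (3 higher, 5 lower), 2 with arrays scaled, 0 with all arrays weighted equally, bounds kept or spot positions centred, 83 without array 4 of embryo 4 (19 higher, 64 lower), 7 without the 3 doubted arrays (3 higher, 4 lower), 2111 over single arrays (1108 higher, 1003 lower), 6298 in Cy5 and 8145 in Cy3 only, and 0 to 38 with an embryo left out. Outside the settings of 1 orientation, the cause was not tested. No paired analysis was possible because each ratio is set against a pool and the shared embryo numbers of thymus and fibroblasts belong to embryos of different age.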
